A study of Mus musculus with 36 samples.

Results

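Low oxygen switches on a small set of genes in most animal cells, and 10 of them are described here in the cells from which kidney organoids are built: *Egln1*, *Egln3*, *Vegfa*, *Adm*, *Car9*, *Bnip3*, *P4ha1*, *P4ha2*, *Ndrg1* and *Ankrd37*. They were chosen by name as textbook targets of hypoxia, with earlier results of these data known. All 10 were found in the table of 22761 genes. RNA sequencing covered 36 libraries in 9 groups of 4. Ureteric bud (UB), stromal progenitor (SP) and nephron progenitor (NP) cells were isolated from CD1 mouse kidneys of embryonic day 11.5 or 12.5 (the ex-fetu groups E11.5_UB, E11.5_SP, E11.5_NP, E12.5_UB, E12.5_SP and E12.5_NP). Their counterparts were made from mouse embryonic stem cells (ES-derived groups iUB, iSP and iNP). The iSP and iNP cells came from the E14 line and the iUB cells from a reporter line labelled *Sox9-mCherry* (other parts of the study's methods describe a *Sox8-mCherry* line), so that each ES-derived group rests on a single line. The iUB cells were also made by another differentiation protocol. Contrasts of iUB with iSP or iNP, interactions included, thus cannot tell cell type apart from line and protocol. NP and iNP cells were sorted as high in ITGA8 and low in PDGFRA, and SP and iSP cells as the reverse, after endothelial cells (CD31) and bud cells (EpCAM and RET) had been gated out. UB cells were sorted as positive for RET and EpCAM, and iUB cells as positive for EpCAM and mCherry. Kidneys of a whole litter went into each ex-fetu sample and embryoid bodies of a differentiation batch into each ES-derived sample, so that the spread between samples is that between such pools. No group is labelled as hypoxic, and the oxygen level of the cultures is not given in the sources used here.

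The response to low oxygen runs through the hypoxia-inducible factors (HIFs), which pair an unstable alpha subunit (from *Hif1a* or *Epas1*) with a stable partner (from *Arnt*). When oxygen is present, prolyl hydroxylases of the *Egln* family mark the alpha subunit, the von Hippel-Lindau protein (from *Vhl*) binds the mark and the subunit is destroyed. When oxygen is short the subunit accumulates, enters the nucleus and binds the short core motif ACGTG or GCGTG near its target genes. The factor is thus set mainly at the level of protein, and its target transcripts are the usual readout. Embryonic kidney grows at low oxygen until its vessels form, and *Vegfa* from its own cells draws in endothelium.

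The promoter sequences are shown first, because the genes are known as targets of a factor that reads a short motif. Sequences of 250 bases before the start of transcription were taken from RefSeq (GRCm38.p6), which gave a window for 9 of the 10 genes, with 2 windows for *Vegfa* and none for *Ndrg1*. The motifs ACGTG and GCGTG were searched on both strands, and the palindrome CACGTG counts on both. All 9 genes held at least 1 match, 9 of the 10 windows (90%) held either form, and 8 (80%) held ACGTG. Of all 32851 RefSeq windows of this length 38.6% held either form and 16.6% held ACGTG, and of the windows of genes with expression values 51.7% and 19.99%. Of 29 windows of other hypoxia-inducible genes, listed for comparison, 72.4% held either form and 24.1% held ACGTG. A match is a description of the letters only. In the following lines each sequence runs 5′ to 3′ on the strand of its gene, with the core motif or its reverse complement in capitals. The first 5 are the windows of *Egln3*, *Bnip3*, *P4ha1* and *Adm*, which stand for the sensors, the mitochondria, the collagen enzymes and the ligands, and the outer window of *Vegfa*, the only one with no match. These 5 stretches lie outside the annotated gene, and that of *Bnip3* is therefore shown over 237 bases. Other windows lie within the gene (*Ankrd37*, *P4ha2* and the inner one of *Vegfa*) or overlap its first bases (*Egln1* and *Car9*).
Egln3, chr12:54203875-54204124, minus strand: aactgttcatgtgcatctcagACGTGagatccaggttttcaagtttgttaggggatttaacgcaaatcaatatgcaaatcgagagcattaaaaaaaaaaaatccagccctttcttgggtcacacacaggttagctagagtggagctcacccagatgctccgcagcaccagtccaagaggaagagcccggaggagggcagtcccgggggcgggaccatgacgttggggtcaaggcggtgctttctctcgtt
Bnip3, chr7:138909520-138909756, minus strand: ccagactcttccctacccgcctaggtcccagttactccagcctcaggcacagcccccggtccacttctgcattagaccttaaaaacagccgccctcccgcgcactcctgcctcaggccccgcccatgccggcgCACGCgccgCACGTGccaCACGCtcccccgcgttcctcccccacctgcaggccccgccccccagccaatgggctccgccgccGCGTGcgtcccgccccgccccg
P4ha1, chr10:59323046-59323295, plus strand: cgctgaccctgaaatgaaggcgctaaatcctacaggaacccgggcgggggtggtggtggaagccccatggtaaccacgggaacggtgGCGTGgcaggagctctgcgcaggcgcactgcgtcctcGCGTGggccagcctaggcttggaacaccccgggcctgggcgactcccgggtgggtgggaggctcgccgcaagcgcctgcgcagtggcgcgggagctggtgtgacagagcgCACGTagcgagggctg
Adm, chr7:110627407-110627656, plus strand: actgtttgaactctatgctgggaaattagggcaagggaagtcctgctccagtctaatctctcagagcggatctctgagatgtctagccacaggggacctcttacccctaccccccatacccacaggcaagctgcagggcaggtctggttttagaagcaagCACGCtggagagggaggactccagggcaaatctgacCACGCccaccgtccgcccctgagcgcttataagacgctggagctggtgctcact
Vegfa, outer start, chr17:46032378-46032627, minus strand: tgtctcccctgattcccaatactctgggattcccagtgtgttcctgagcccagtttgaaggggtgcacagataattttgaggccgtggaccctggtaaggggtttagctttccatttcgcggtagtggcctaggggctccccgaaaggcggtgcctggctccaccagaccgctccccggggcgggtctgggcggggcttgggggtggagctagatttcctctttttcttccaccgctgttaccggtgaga

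For the remaining genes with a window the 30 bases around an ACGTG match are shown, with that match or its reverse complement in capitals and any other match, such as a GCGTG in *P4ha2*, in lower case.
Car9, chr4:43506995-43507024, plus strand: cctatttccgatgCACGTacagcccgtcca
Ankrd37, chr8:46000071-46000100, minus strand: cccagcagtACGTGcctagctcggctcgca
Egln1, chr8:124949306-124949335, minus strand: ggggccgtggtgtACGTGcagcgcgcgcgg
P4ha2, chr11:54100833-54100862, plus strand: gtgtgcatcgcatACGTGcagcgcgtggcg

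*Bnip3* held the most matches of any window, 5, of which 2 are the strands of a CACGTG. *Ankrd37* held 4, *P4ha1* and *P4ha2* 3 each, *Egln1* and *Adm* 2 each, and *Egln3* and *Car9* 1 each. The outer *Vegfa* window held 0, and the window of its inner start, which lies within the gene, held 2. No match says only that these letters are absent from this window.

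**Figure D1:**
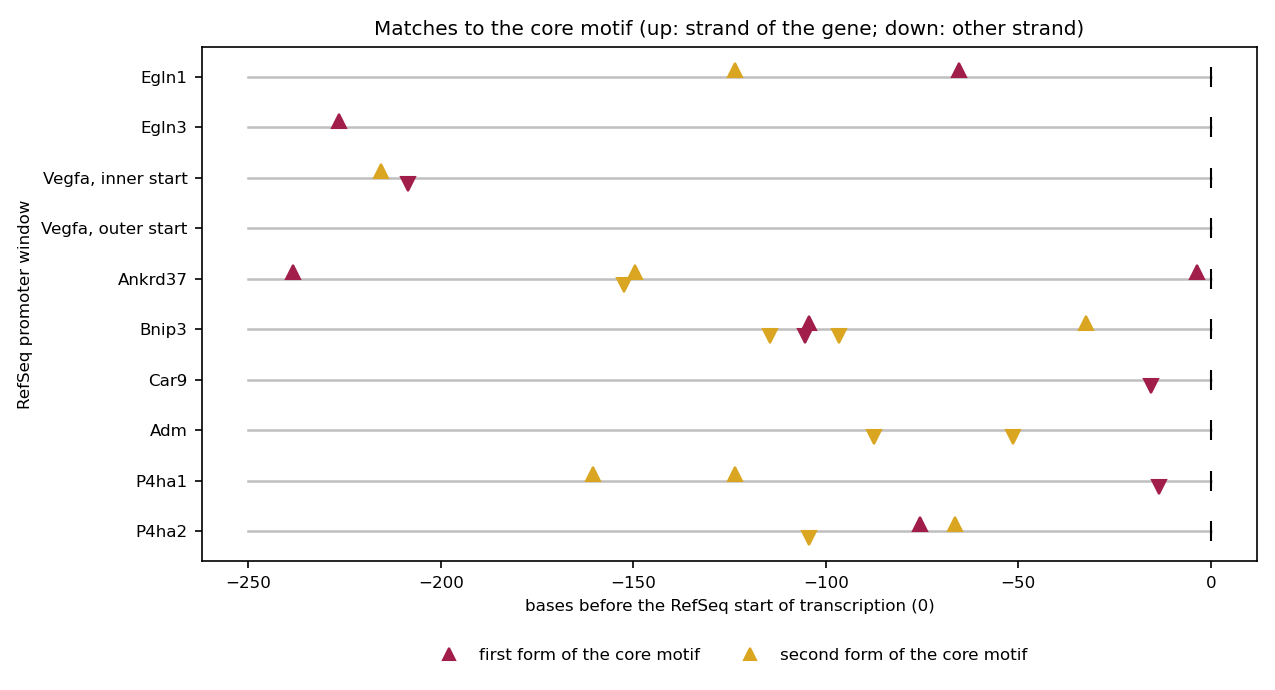
Map of matches to the core motif in the 10 RefSeq windows, with the distance in bases before the start of transcription on the horizontal axis. The first form of the motif is ACGTG and the second GCGTG, and triangles point up for a match on the strand of the gene and down for the other strand. The 5 matches of *Bnip3* are centred from -114.5 to -32.5 bases from its start, and the outer *Vegfa* window is empty.

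The deposited values are read counts scaled to the library size (CPM) and by the normalisation factors of the authors, called normalised CPM here. The libraries held 13.004 to 52.5 M reads on genes, with a median of 27.4 M, and 3 reads, taken as the limit of detection, were worth 0.0605 to 0.223 normalised CPM. A gene counts as risen or fallen when limma on log2(normalised CPM + 1) gave an adjusted p-value under 0.05 over all genes tested, and log2 fold changes are on that scale, which understates the change of low genes. E12.5_UB-1 had the lowest mean correlation with its own group (0.965) and E12.5_SP-1 the next lowest (0.971), and counts of calls that rest on them are given with and without them. The labels also differ on the age of the UB cells, since samples titled E11.5 name E12.5 as their source and the reverse. Titles were followed, and any difference by day in UB cells would change sign under the other label. The comparisons of iUB with E11.5_UB and E12.5_UB would then trade places, and each E11.5 comparison and interaction that uses UB cells would rest on the other libraries. Summed bud markers reached 2776 to 3007 normalised CPM in iUB and 3320 to 3587 in E11.5_UB, stromal markers 1662 to 1764 in iSP and 2670 to 4350 in E11.5_SP, and nephron markers 754 to 1155 in iNP and 1860 to 2105 in E11.5_NP. The nephron sum also reached 638 to 740 in E12.5_UB and 401 to 534 in iUB, and the bud sum was 1894 in E12.5_UB-1 where its group had 2886 to 3049.

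The study asked how far ES-derived cells differ from those of the kidney. For these genes, chosen with earlier results known, the difference was large and mostly 1-sided. Against the E11.5 cells of their type, 8 of the 10 genes rose in iUB, 9 in iSP and 10 in iNP, and 0 fell in any. Over all genes tested, 32.1% rose and 28.5% fell in iUB, 35.5% rose and 32.1% fell in iSP, and 35.5% rose and 29.2% fell in iNP. The median log2 fold change of the 10 genes was 1.86 in iUB, 1.68 in iSP and 2.10 in iNP, where that of all genes tested was 0.02, 0.04 and 0.07. *Car9* passed the filter on low values only through the ES-derived group in all 3 comparisons, so that it had to differ there and is no support. Without it the medians were 1.83, 1.54 and 1.62. Against E12.5 cells, 6 genes rose and 1 fell in iUB, 8 rose in iSP and 7 in iNP, where 23.3%, 33.3% and 25.6% of all genes rose and 21.2%, 28.8% and 18.7% fell. *Car9* again passed the filter only through iSP and iNP, and in UB cells through iUB apart from E12.5_UB-1, so that it is no support in any of those counts. Without the E12.5 library numbered 1, 6 genes rose and 1 fell in iUB, 8 rose and 1 fell in iSP (*Ndrg1*, by 0.57 on the log2 scale, adjusted p = 0.00169), and 7 rose in iNP. All 4 ES-derived libraries lay above all 4 E11.5 libraries for 8 genes in iUB, 9 in iSP and 10 in iNP, where 28.9%, 32.7% and 33.7% of all genes did, and above all 4 E12.5 libraries for 6, 8 and 8 genes, where 21.9%, 31.7% and 25.0% did. These counts include *Car9*. The comparisons with E11.5 and with E12.5 cells share the ES-derived libraries and are given side by side. In bulk samples, more cells that use a gene and more RNA in each cell cannot be told apart.

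**Figure D2:**
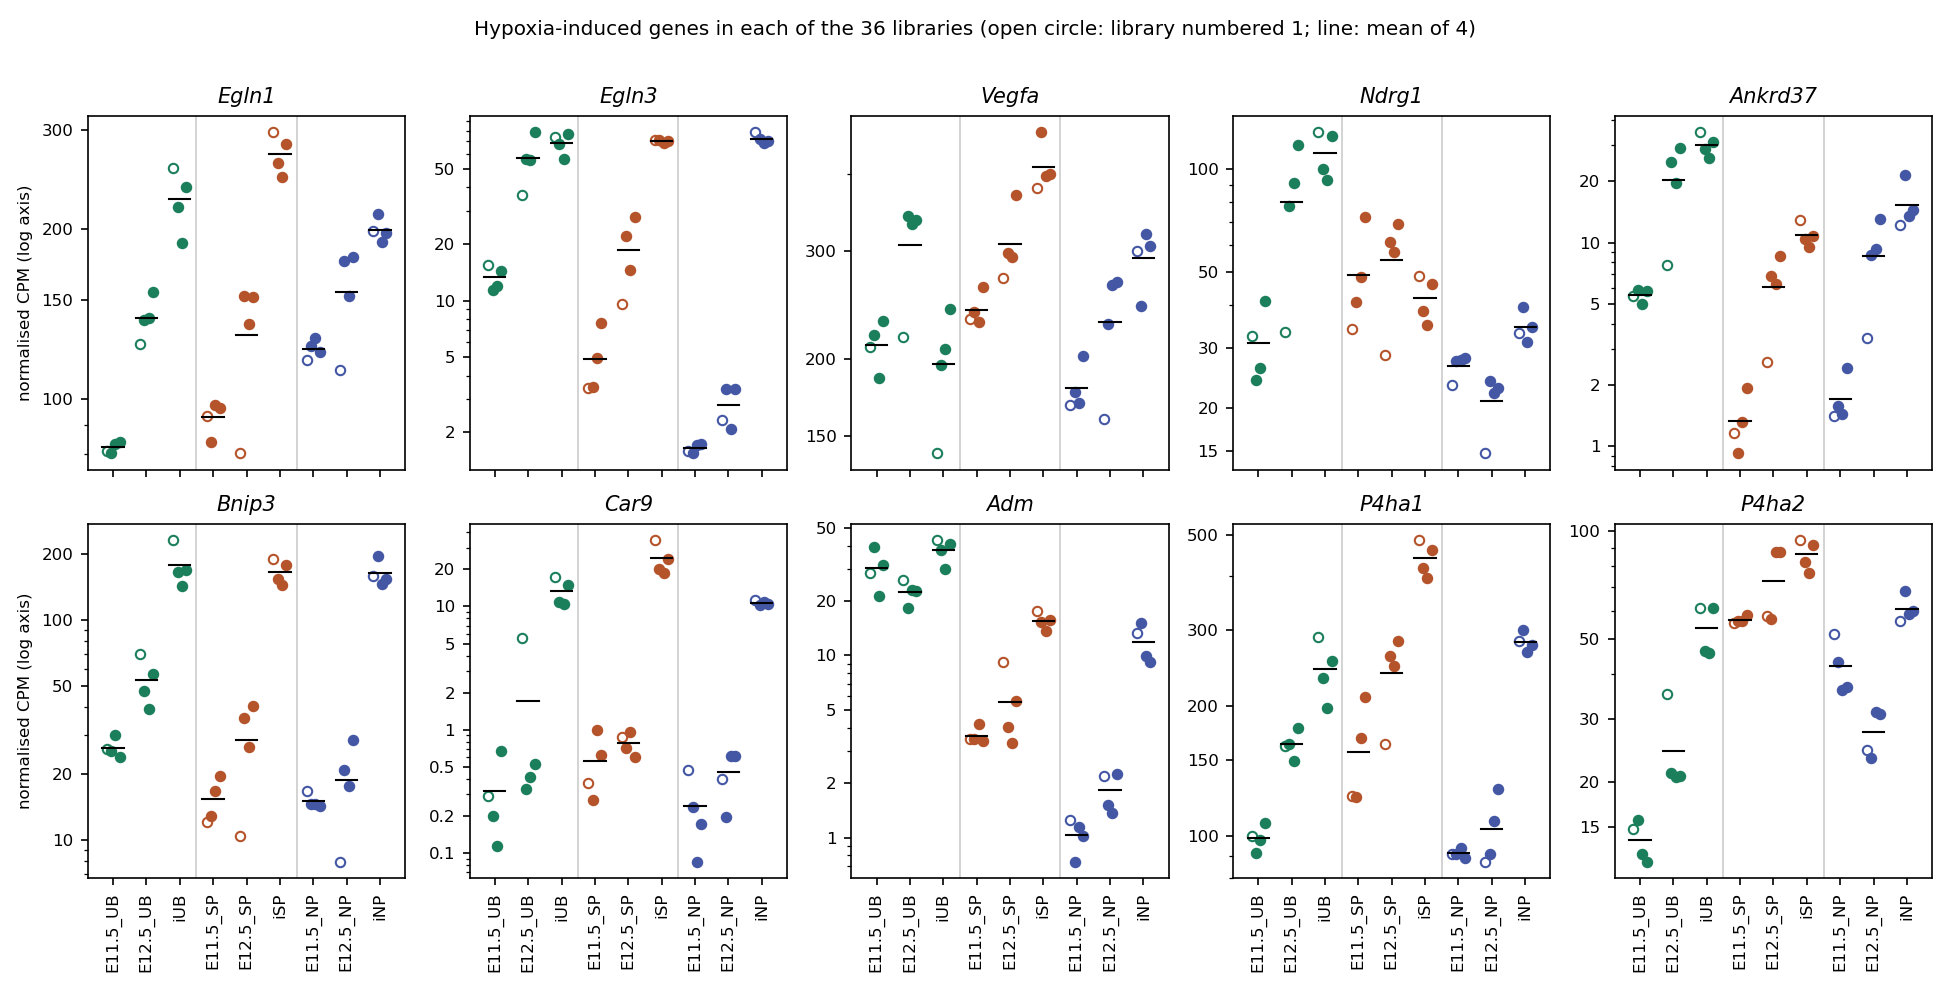
Normalised CPM of each gene in each library, on a log axis, with the 9 groups along the horizontal axis and the mean of 4 libraries as a line. Open circles mark the libraries numbered 1. *Bnip3*, *Car9* and *Egln1* are higher in all 12 ES-derived libraries than in any of the 24 ex-fetu libraries, whereas *Vegfa* and *Ndrg1* overlap widely.

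Oxygen sensors of the pathway are themselves its targets, which gives the response a brake. *Egln1* (ENSMUSG00000031987, chr8:124908587-124949324), the main HIF prolyl hydroxylase, had 81.1, 80.2, 83.4 and 84.1 normalised CPM in the 4 E11.5_UB libraries and 257, 219, 189 and 237 in iUB. In E11.5_SP it had 93.4, 83.9, 97.8 and 96.6, and in iSP 298, 262, 247 and 283. In E11.5_NP it had 117, 124, 129 and 121, and in iNP 199, 213, 190 and 197. No ES-derived library overlapped with an ex-fetu library, the lowest of the former being at 189 and the highest of the latter at 179. The log2 fold change against E11.5 cells was 1.44 ± 0.09 (SE, adjusted p = 1.22e-06) in iUB, 1.54 ± 0.09 (adjusted p = 5.89e-07) in iSP and 0.70 ± 0.08 (adjusted p = 4.12e-05) in iNP. The rise in iNP was smaller than that in iSP by 0.84 on the log2 scale (SE 0.11, adjusted p = 2.29e-05, limma interaction). Against E12.5 cells *Egln1* rose in iUB and iSP, whereas in iNP the difference of 0.39 (95% interval 0.04 to 0.74) did not pass the test (adjusted p = 0.0686), though all 4 iNP libraries lay above all 4 of E12.5_NP. It passed in 5 of 15 alternatives, with 0.58 after quantile normalisation, 0.54 after upper-quartile scaling, 0.45 without E12.5_NP-2, and 0.39 in the fit of all samples and with the replicate block.

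*Egln3* (ENSMUSG00000035105, chr12:54178981-54203860), the hydroxylase with the strongest induction by hypoxia in many cells, moved the most by log2 fold change in NP cells. It had 1.60, 1.54, 1.71 and 1.74 normalised CPM in E11.5_NP and 78.4, 72.1, 68.9 and 70.7 in iNP, a ratio of means of 44.0. In SP cells it went from 3.44, 3.50, 4.97 and 7.65 to 71.2, 70.9, 68.4 and 70.3. In UB cells it went from 15.5, 11.5, 12.01 and 14.4 to 74.3, 68.2, 56.8 and 77.1. The E11.5 groups thus differed widely and the ES-derived groups hardly at all. The log2 fold change was 2.29 ± 0.13 (adjusted p = 4.52e-07) in iUB, 3.65 ± 0.20 (adjusted p = 4.77e-07) in iSP and 4.79 ± 0.10 (adjusted p = 1.42e-09) in iNP, and each pair of these differed by the interaction test. E11.5_UB exceeded E11.5_NP by 2.43 (95% interval 2.17 to 2.69) on the log2 scale. Among ES-derived cells, iNP minus iSP was 0.05 (95% interval -0.11 to 0.20), iUB minus iSP -0.03 (-0.24 to 0.18) and iUB minus iNP -0.08 (-0.33 to 0.18). Against E12.5_UB, which had 36.2 to 78.8 and overlapped, the difference in iUB of 0.32 (95% interval -0.16 to 0.80) did not pass the test (adjusted p = 0.245). Against E12.5_SP and E12.5_NP *Egln3* rose in iSP and iNP by 1.97 and 4.29 (adjusted p = 1.61e-04 and 9.35e-08).

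Both secreted ligands of the set act on vessels, and they moved unlike each other. *Vegfa* (ENSMUSG00000023951, chr17:46016993-46032369), the main growth factor for endothelium, was already high in kidney cells. In E11.5_UB it had 209, 219, 186 and 230 normalised CPM and in iUB 140, 195, 207 and 241, so that these groups overlapped. In E11.5_SP it had 233, 238, 230 and 262, and in iSP 380, 470, 397 and 401. In E11.5_NP it had 168, 177, 170 and 202, and in iNP 300, 244, 320 and 306. Every iSP and iNP library was above every E11.5 library of its type. *Vegfa* rose by a log2 fold change of 0.77 ± 0.09 (adjusted p = 4.38e-05) in iSP and 0.70 ± 0.11 (adjusted p = 3.30e-04) in iNP, and in iUB the difference of -0.13 (95% interval -0.46 to 0.21) did not pass the test (adjusted p = 0.487). The difference in iUB was below that in iSP by 0.90 (SE 0.18, adjusted p = 7.07e-04) and below that in iNP by 0.83 (SE 0.19, adjusted p = 0.00221). Against E12.5_UB, which had 217, 343, 332 and 337, *Vegfa* was lower in iUB by 0.65 on the log2 scale (adjusted p = 0.025), the only fall in the comparisons of ES-derived with ex-fetu cells when all libraries were used. That call was lost when any of 4 libraries was left out (E12.5_UB 2, 3 or 4, or iUB 2), with values from -0.65 to -0.59. Against E12.5_SP *Vegfa* rose in iSP by 0.42 (adjusted p = 0.00861). Against E12.5_NP the difference in iNP of 0.37 (95% interval -0.03 to 0.77) did not pass the test (adjusted p = 0.119), with overlap. It was 0.21 without E12.5_NP-1, and passed in 3 of 15 alternatives, with values up to 0.54.

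*Adm* (ENSMUSG00000030790, chr7:110627661-110629820), which encodes the vasodilator peptide adrenomedullin, differed widely between E11.5 cell types. It had 1.25, 0.739, 1.15 and 1.03 normalised CPM in E11.5_NP and 13.4, 15.02, 9.96 and 9.17 in iNP. It had 3.47, 3.48, 4.21 and 3.38 in E11.5_SP and 17.4, 15.2, 13.6 and 15.6 in iSP. In E11.5_UB it was already at 28.5, 39.2, 21.3 and 31.5, and iUB, at 43.1, 37.8, 29.97 and 41.0, overlapped with it. *Adm* rose by a log2 fold change of 2.64 ± 0.17 (adjusted p = 1.20e-06) in iNP and 1.83 ± 0.11 (adjusted p = 1.05e-06) in iSP, whereas in iUB the difference was 0.34 (95% interval -0.05 to 0.74, adjusted p = 0.119). In iUB it passed with the replicate block (0.34) and without E11.5_UB-2 (0.48). Against E12.5_UB it did rise in iUB, by 0.74 (adjusted p = 0.00314), with no overlap. The difference in iUB was smaller than that in iNP by 2.30 (SE 0.26, adjusted p = 1.90e-06) and smaller than that in iSP by 1.48 (SE 0.22, adjusted p = 3.79e-05). E11.5_UB exceeded E11.5_NP 28.9-fold and E11.5_SP 8.28-fold by ratio of means, and *Adm* was higher in iUB than in iNP and iSP by 1.61 and 1.24 on the log2 scale (adjusted p = 4.49e-05 and 1.25e-05).

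*Car9* (ENSMUSG00000028463, chr4:43506966-43513729), a carbonic anhydrase of the cell surface that helps to control pH, was close to the limit of detection in ex-fetu cells. It had 0.468, 0.235, 0.0853 and 0.171 normalised CPM in E11.5_NP, 0.367, 0.267, 0.993 and 0.624 in E11.5_SP, and 0.291, 0.201, 0.113 and 0.676 in E11.5_UB. These values rest on 26, 71 and 36 reads over 4 libraries. In ES-derived cells it had 11.3, 10.2, 10.9 and 10.5 in iNP, 34.6, 20.2, 18.8 and 24.3 in iSP, and 17.3, 10.8, 10.5 and 14.9 in iUB, from 1468, 2509 and 1201 reads. No ES-derived library overlapped with an ex-fetu library. The ratio of means was 44.8 in NP, 43.5 in SP and 41.7 in UB cells. Among the 24 ex-fetu libraries E12.5_UB-1 stood apart with 5.53, where the other E12.5_UB libraries had 0.331 to 0.531.

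*Bnip3* (ENSMUSG00000078566, chr7:138890836-138909519), which acts at mitochondria in their removal and in cell death, rose in all 3 types to a similar level. It had 26.0, 25.4, 29.95 and 23.7 normalised CPM in E11.5_UB and 231, 165, 142 and 169 in iUB. In E11.5_SP it had 12.01, 12.9, 16.7 and 19.6, and in iSP 189, 154, 143 and 177. In E11.5_NP it had 16.7, 14.5, 14.5 and 14.2, and in iNP 158, 195, 146 and 154. The lowest ES-derived library, at 142, lay above the highest ex-fetu library, at 70.3. The log2 fold change was 2.68 ± 0.14 (adjusted p = 3.07e-07) in iUB, 3.37 ± 0.16 (adjusted p = 2.33e-07) in iSP and 3.35 ± 0.11 (adjusted p = 2.71e-08) in iNP. Between ES-derived types the differences were -0.02 (95% interval -0.30 to 0.25) for iNP minus iSP, 0.08 (-0.26 to 0.41) for iUB minus iSP and 0.10 (-0.26 to 0.46) for iUB minus iNP. Against E12.5 cells *Bnip3* rose 3.30-fold in iUB, 5.85-fold in iSP and 8.71-fold in iNP by ratio of means (adjusted p = 2.02e-04, 1.45e-04 and 2.97e-05). Without the E12.5 library numbered 1 the log2 fold changes were 1.85, 2.25 and 2.83, where they were 1.71, 2.65 and 3.17 with it.

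*P4ha1* and *P4ha2* encode catalytic subunits of the collagen prolyl hydroxylase, which lets collagen fold. *P4ha1* (ENSMUSG00000019916, chr10:59323296-59373304) had 100, 91.2, 97.9 and 107 normalised CPM in E11.5_UB and 290, 233, 197 and 254 in iUB. In E11.5_SP it had 124, 123, 169 and 210, and in iSP 486, 419, 397 and 460. In E11.5_NP it had 90.9, 90.9, 93.6 and 88.8, and in iNP 284, 300, 267 and 277. The groups did not overlap in any type, and *P4ha1* rose by 1.28 ± 0.11 (adjusted p = 8.10e-06), 1.52 ± 0.17 (adjusted p = 3.63e-05) and 1.62 ± 0.08 (adjusted p = 1.90e-07) on the log2 scale in iUB, iSP and iNP.

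*P4ha2* (ENSMUSG00000018906, chr11:54100095-54131665) differed between types before any comparison with ES-derived cells. It had 14.8, 15.7, 12.7 and 12.02 normalised CPM in E11.5_UB, 55.5, 56.3, 56.3 and 58.6 in E11.5_SP, and 51.9, 43.3, 36.2 and 36.9 in E11.5_NP. It was lower in UB than in SP and NP cells by 1.97 and 1.53 on the log2 scale. In iUB it had 61.3, 46.5, 45.8 and 61.2, in iSP 94.6, 82.0, 76.6 and 91.8, and in iNP 56.2, 68.1, 58.8 and 60.1. The rise of 1.88 ± 0.13 (adjusted p = 1.95e-06) in iUB exceeded those in iSP, 0.59 ± 0.08, and iNP, 0.53 ± 0.13, by 1.29 (SE 0.16, adjusted p = 5.87e-06) and 1.35 (SE 0.19, adjusted p = 2.10e-05). Against E12.5 cells *P4ha2* rose by 1.12 in both iUB and iNP (adjusted p = 0.00147 and 1.66e-04). In iSP the difference of 0.27 (95% interval -0.10 to 0.64) did not pass the test (adjusted p = 0.176), with overlap. It passed only after quantile normalisation, at 0.39.

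*Ndrg1* (ENSMUSG00000005125, chr15:66929318-66969640), a stress-responsive gene linked to differentiation, moved mainly in UB cells when set against E11.5 by title. It had 32.5, 24.2, 26.2 and 41.2 normalised CPM in E11.5_UB and 129, 100, 92.9 and 125 in iUB, which did not overlap. In E11.5_SP it had 34.0, 40.9, 48.3 and 72.4, and iSP, at 48.6, 38.5, 34.9 and 46.0, lay within that range. In E11.5_NP it had 23.3, 27.4, 27.6 and 28.0, and in iNP 33.1, 39.5, 31.3 and 34.6. The log2 fold change was 1.83 ± 0.17 (adjusted p = 1.17e-05) in iUB and 0.37 ± 0.11 (adjusted p = 0.0126) in iNP, and in iSP the difference of -0.17 (95% interval -0.64 to 0.31) did not pass the test (adjusted p = 0.498). The rise in iUB exceeded the difference in iSP by 2.0 (SE 0.29, adjusted p = 3.25e-05) and that in iNP by 1.46 (SE 0.21, adjusted p = 2.71e-05). Against E12.5 cells the difference in iUB was 0.60 (95% interval -0.16 to 1.36, adjusted p = 0.178) and that in iNP passed the test (0.71, adjusted p = 0.00753). *Ndrg1* overlaps antisense genes, *Ankrd37* overlaps *Ufsp2* and *Lrp2bp*, and *Car9* overlaps *Gm12454*. Whether counting used strand is not given in the sources used here, so reads of these neighbours may be included.

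*Ankrd37* (ENSMUSG00000050914, chr8:45996902-46005707), a small ankyrin-repeat gene known as a HIF target, rose in all 3 types against E11.5 cells. It had 5.46, 5.83, 4.99 and 5.76 normalised CPM in E11.5_UB and 34.9, 28.8, 25.9 and 30.9 in iUB. It had 1.17, 0.924, 1.31 and 1.92 in E11.5_SP and 12.9, 10.4, 9.49 and 10.7 in iSP, and 1.40, 1.58, 1.45 and 2.43 in E11.5_NP and 12.2, 21.3, 13.4 and 14.4 in iNP. No groups overlapped, and the log2 fold changes of 2.25 ± 0.11 (adjusted p = 1.83e-07), 2.36 ± 0.15 (adjusted p = 1.33e-06) and 2.57 ± 0.19 (adjusted p = 2.65e-06) in iUB, iSP and iNP passed no interaction test (adjusted p = 0.247 to 0.67). The smaller rise in iUB did pass with edgeR, by -0.61 against iSP and -0.69 against iNP (adjusted p = 0.0487 and 0.0455), and with a pseudocount of 0.1 by -0.66 against iNP (adjusted p = 0.0487), where limma gave -0.11 and -0.32. Against E12.5 cells *Ankrd37* rose in iSP (0.83, adjusted p = 0.0233), a call lost without iSP 1 or 4 (0.75 and 0.83), and did not pass in iUB (0.68, adjusted p = 0.135) or iNP (0.85, adjusted p = 0.0583).

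**Figure D3:**
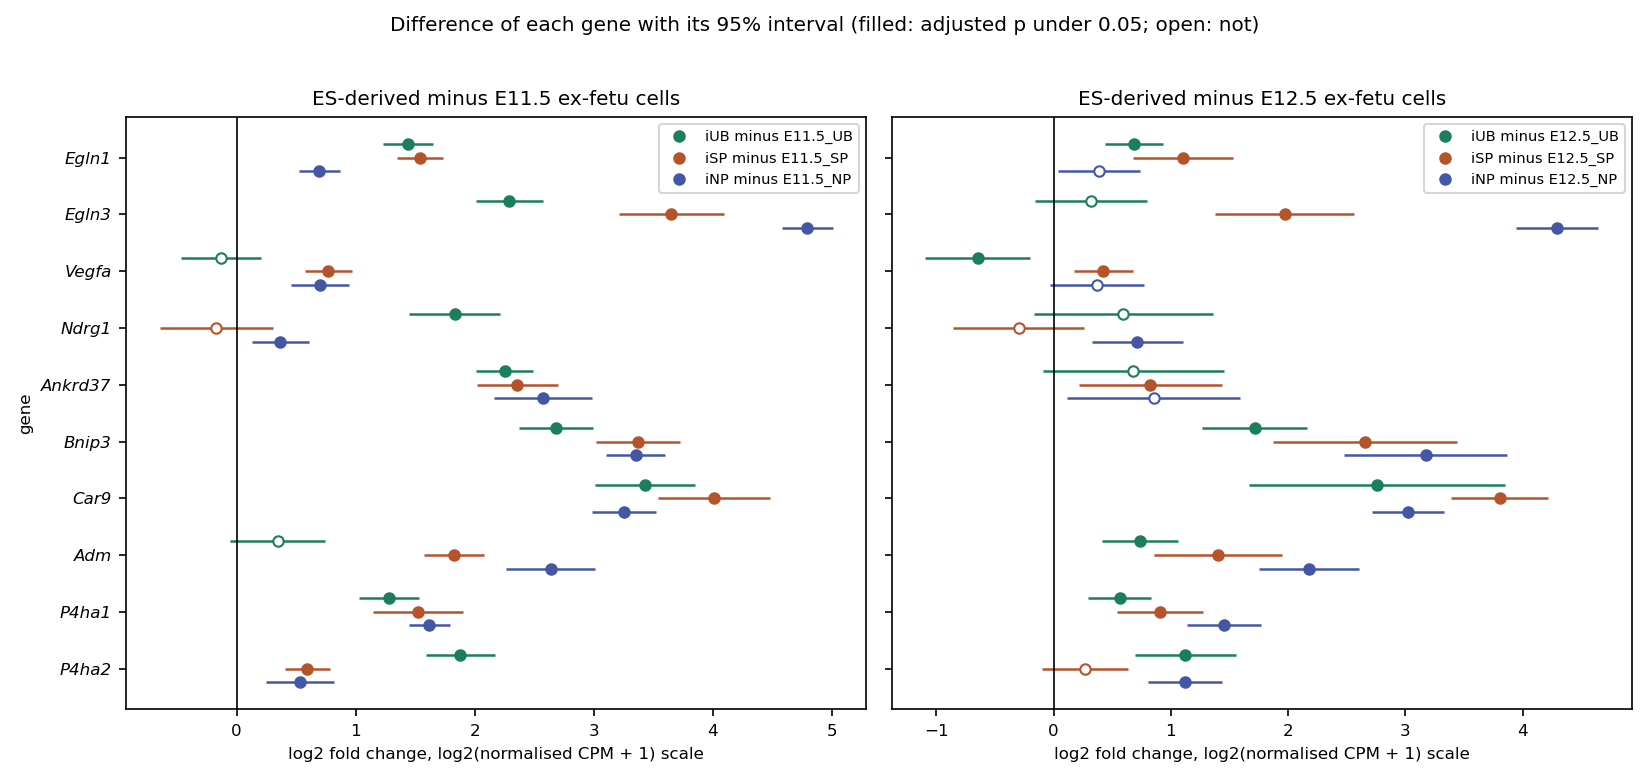
Log2 fold change with its 95% interval for each gene, ES-derived against E11.5 and against E12.5 cells of the same type. The values against E12.5_UB sit below those against E11.5_UB for every gene but *Adm*, and *Egln3* goes from 2.29 to 0.32 (0.12 without E12.5_UB-1).

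Levels of different genes were compared per kilobase of exon. On that scale *Vegfa* was the highest of the 10 genes in all 6 ex-fetu groups, with means of 41.8 to 71.8 normalised CPM per kilobase. In ES-derived cells the first place passed to *Bnip3* in iUB and iNP (77.9 and 72.0) and to *P4ha1* in iSP (107). *Car9* was the lowest in every group but iSP, where *Ndrg1* was, at 6.37. Among ES-derived types, limma called 3 genes higher and 5 lower in iUB than in iSP, where 32.0% and 32.7% of all genes were, and 0 higher and 5 lower in iNP than in iSP, where 16.5% and 14.2% were. *Vegfa*, *Car9*, *P4ha1*, *P4ha2* and *Egln1* were the 5 lower genes in both comparisons, which share the iSP libraries. The call of *Egln1* in iUB against iSP (-0.27, adjusted p = 0.0401) was lost in 10 of 15 alternatives, among them edgeR and the leaving out of iSP 1, 2 or 4 or of iUB 2, 3 or 4, with values from -0.30 to -0.19. In iUB against iNP 3 genes were higher (*Ndrg1*, *Ankrd37* and *Adm*) and *Vegfa* was lower, where 25.8% and 26.3% of all genes were. At E11.5, 5 genes were higher and 2 lower in UB than in NP cells (28.7% and 31.5% of all genes), 4 higher and 3 lower in UB than in SP cells (26.8% and 26.7%), and 1 higher and 6 lower in NP than in SP cells (21.0% and 22.2%). The rise in ES-derived cells was itself larger in 2 and smaller in 2 genes for NP than for SP cells (17.4% and 11.9% of all genes), *Car9* being among the smaller although it passed the filter only through ES-derived cells and lost its call in 9 of 23 alternatives. The difference from E11.5 cells was higher in 2 and lower in 4 genes for UB than for SP cells (24.2% and 23.3%). It was higher in 3 and lower in 5 for UB than for NP cells (22.3% and 24.9%). *Vegfa* and *Adm* were lower in both without having passed the test in iUB. *Ndrg1* was higher in both without having passed in iSP.

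Ex-fetu cells were next compared by age. In UB cells 8 of the 9 genes tested were higher at E12.5 than at E11.5 by title and 0 lower, where 14.2% and 12.3% of all genes were. *Egln3* had 36.2, 56.6, 55.8 and 78.8 normalised CPM in E12.5_UB, a rise over E11.5_UB of 1.97 ± 0.21 on the log2 scale (adjusted p = 5.77e-04). *Ankrd37* had 7.78, 24.8, 19.6 and 29.1 there and rose by 1.57 ± 0.33 (adjusted p = 0.00847). In SP cells 2 genes were higher at E12.5, *Egln3* (1.68 ± 0.33, adjusted p = 0.0146) and *Ankrd37* (1.53 ± 0.29, adjusted p = 0.0124), and in NP cells 1, *Ankrd37* (1.72 ± 0.32, adjusted p = 0.0173), where 3.73% and 2.74% of all genes were higher and 4.80% and 3.59% lower. The UB calls of *Vegfa* and *Ndrg1* were each lost when any of 6 single libraries was left out (E11.5_UB 1, 2 or 3, or E12.5_UB 2, 3 or 4), with values down to 0.46 and 1.01 and adjusted p up to 0.0747 and 0.0781. That of *Egln3* in SP cells was lost without E11.5_SP 1 or 2 (1.56 and 1.57), and that of *Ankrd37* in NP cells without any of E11.5_NP 1, 2 or 3 or E12.5_NP 3 or 4 (1.5004 to 1.70). *Car9* was not tested by age, as too few libraries reached a value of 1.

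The E12.5 libraries numbered 1 were the lowest of their group for many of the 10 genes: 7 in SP, 6 in NP and 5 in UB cells. E12.5_UB-1 was also the highest of its group for 4 (*Bnip3*, *Car9*, *Adm* and *P4ha2*), with *Bnip3* at 70.3 where the others had 39.2 to 57.0. In the other types *Bnip3* was lowest in library 1, with 10.4, 36.0, 26.5 and 40.5 normalised CPM in E12.5_SP and 7.97, 20.8, 17.5 and 28.6 in E12.5_NP. Without E12.5_SP-1, 6 genes were higher at E12.5 in SP cells, adding *Egln1* (0.65), *Vegfa* (0.40), *Bnip3* (1.12) and *P4ha1* (0.79). Without E12.5_NP-1, 4 were higher in NP cells, adding *Egln1* (0.45), *Egln3* (0.56) and *Vegfa* (0.49), and *P4ha2* was lower by 0.54. Without E12.5_UB-1, 8 genes were higher in UB cells and *Adm* was lower by 0.47. E12.5_SP-1 and E12.5_NP-1 also held the most immediate-early and heat-shock RNA of their groups, with summed levels of 7712 and 2153 normalised CPM where the others had 1411 to 2078 and 458 to 647. Markers of their own type were low in both. The stromal sum was 3446 in E12.5_SP-1 where the others had 5306 to 5724. The nephron sum was 1680 in E12.5_NP-1 where the others had 2645 to 2772. E12.5_UB-1 held more endothelial and stromal marker RNA, with sums of 92.6 and 375 where the others had 2.84 to 5.46 and 17.2 to 34.2. Erythroid marker RNA summed to 69.0 to 1484 normalised CPM in E11.5_SP and 283 to 2829 in E12.5_SP, and to at most 0.141 in ES-derived cells. E11.5_SP-4, with the 1484, was the highest of its group for 7 of the 10 genes. The part of these differences in the results was not tested.

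**Figure D4:**
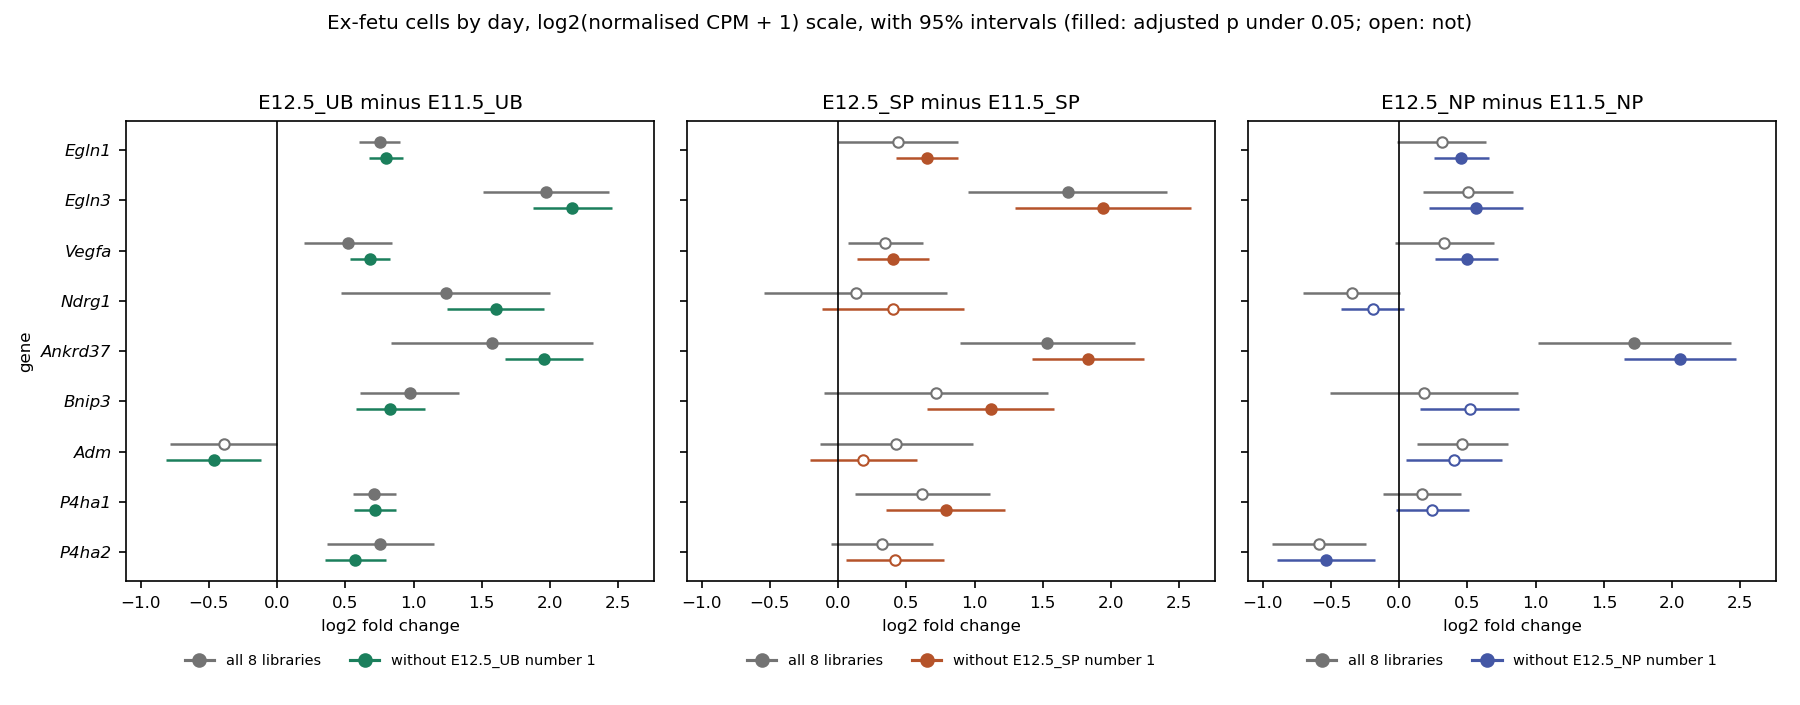
Log2 fold change of each gene from E11.5 to E12.5 (by title) in each cell type, with 95% intervals, with all libraries and without the E12.5 library numbered 1. Leaving that library out raises the number of genes called higher from 2 to 6 in SP and from 1 to 4 in NP cells, and leaves it at 8 in UB cells.

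Neither *Hif1a* nor *Epas1* rose against E11.5 cells at the level of RNA. *Hif1a*, the main alpha subunit, was lower in ES-derived than in E11.5 cells of every type, with means of 164 against 202 normalised CPM in UB (-0.30 on the log2 scale, adjusted p = 0.00427), 172 against 246 in SP (-0.51, adjusted p = 2.95e-04) and 146 against 229 in NP cells (-0.68, adjusted p = 0.00448). *Epas1*, the second alpha subunit, was at 1.82 in iUB and 14.4 in E11.5_UB (-2.51, adjusted p = 1.09e-05), was lower in iSP by 1.44, and in iNP differed by 0.25 (adjusted p = 0.423). *Arnt* and *Vhl* rose in iUB by 0.40 and 0.36 (adjusted p = 3.73e-04 and 0.0113) and passed no test in iSP or iNP. *Hif1an*, the asparaginyl hydroxylase that blocks the activity of the alpha subunit, was lower in iUB (-0.32, adjusted p = 0.00375) and iNP (-0.48, adjusted p = 0.0207). *Egln2*, the third prolyl hydroxylase, differed by -0.01 in iUB and 0.03 in iNP and rose by 0.22 in iSP (adjusted p = 0.0213). Of 15 genes of the HIF system, 5 rose and 4 fell in iUB, 5 and 4 in iSP, and 2 and 5 in iNP. In iUB and iSP the share that rose is near that of all genes (32.1% and 35.5%), and in iNP 35.5% of all genes rose.

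Of all genes tested, 32.1% rose and 28.5% fell in iUB, 35.5% and 32.1% in iSP, and 35.5% and 29.2% in iNP, against which the other listed targets of hypoxia can be read. Of 30 listed, 18 of the 28 tested rose and 5 fell in iUB, 21 of 29 rose and 6 fell in iSP, and 20 of 29 rose and 3 fell in iNP, with median log2 fold changes of 0.56, 0.90 and 0.88. *Stc1*, a secreted glycoprotein, moved the most in iUB, from 6.53 to 172 normalised CPM. *Ddit4*, a brake on mTOR signalling, rose from 121 to 581 in iSP, and *Bhlhe40*, a transcriptional repressor, from 13.6 to 62.2 in iNP.

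Of 21 genes of glycolysis, 16 rose and 2 fell in iUB, 20 rose and 0 fell in iSP, and 20 rose and 1 fell in iNP, with medians of 0.67, 1.75 and 1.29. *Slc2a3*, a glucose transporter, led all 3 comparisons, from 128 to 1007 normalised CPM in UB, 20.4 to 288 in SP and 3.10 to 440.6 in NP cells. *Pdk1*, which keeps pyruvate out of the mitochondrion, rose from 30.2 to 269 in iSP. Receptors, relatives and partners of the 10 genes went both ways, with 7 up and 6 down in iUB, 6 and 9 in iSP and 11 and 7 in iNP, of 16, 21 and 19 tested. Of all genes 32.1% rose and 28.5% fell in iUB, 35.5% and 32.1% in iSP, and 35.5% and 29.2% in iNP. *Calcrl*, the receptor for adrenomedullin, fell from 49.9 to 8.17 in iNP, while *Kdr*, the main receptor for *Vegfa*, rose there from 6.49 to 29.99. Summed endothelial markers, which include *Kdr* itself, were 57.0 to 97.9 in iNP, 35.6 to 57.8 in iSP and 9.21 to 13.6 in iUB. In the E11.5 groups they were 3.88 to 39.6. The part of endothelial cells in the levels of *Kdr* was not tested.

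**Figure D5:**
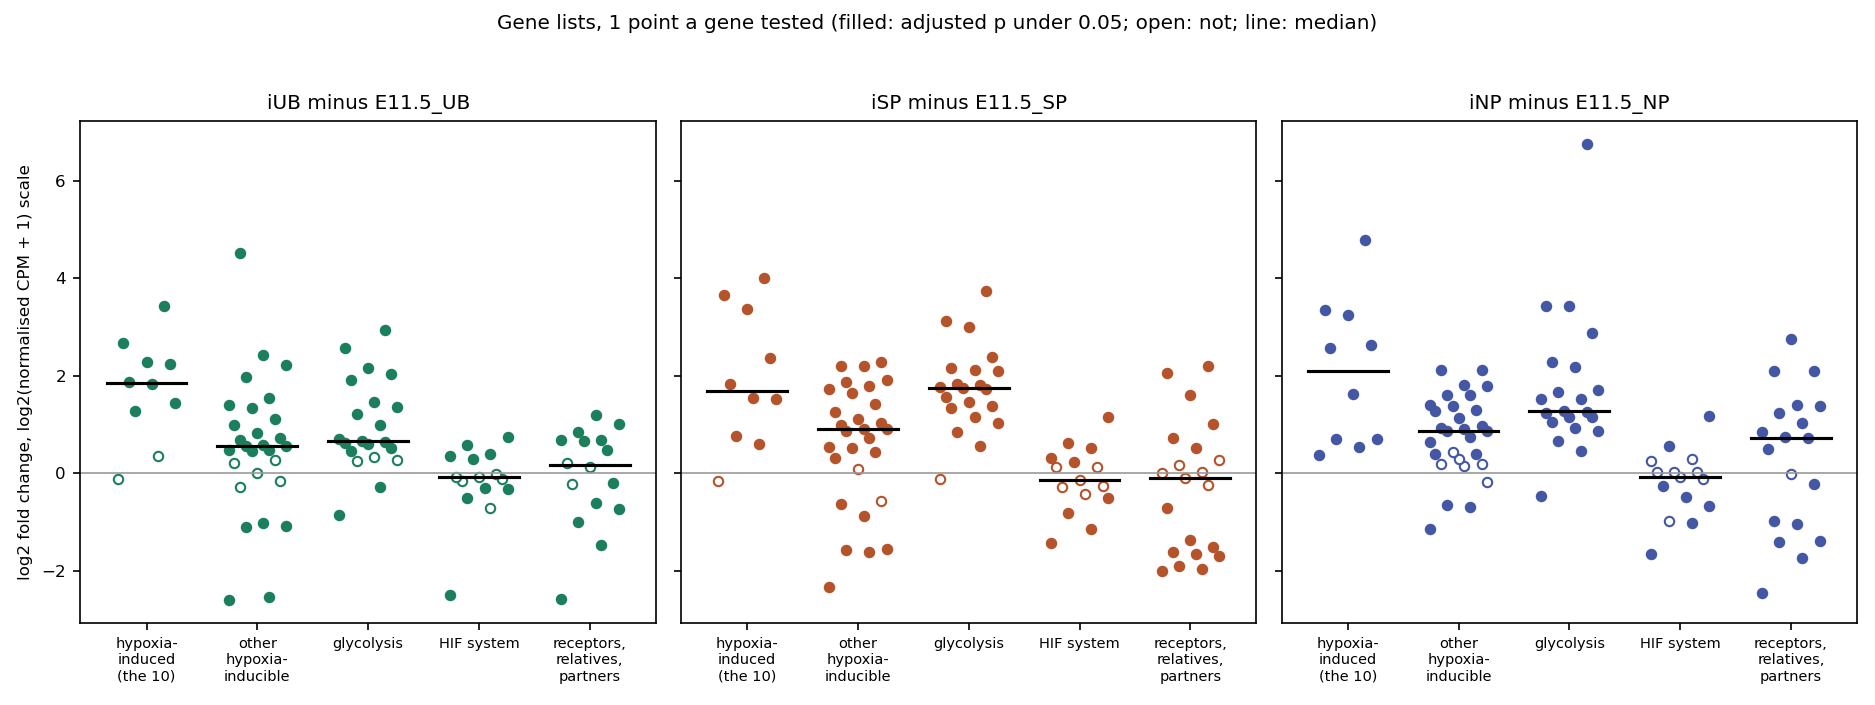
Log2 fold change of ES-derived against E11.5 cells for each gene tested, by list and cell type, with filled points for genes that passed the test and a line at the median. The median lies at 0.67, 1.75 and 1.29 for glycolysis in iUB, iSP and iNP, and at -0.09, -0.14 and -0.08 for the HIF system.

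Outside these lists the genes most like the mean profile of the 10 over 36 libraries, among 15991 compared, were *Ankmy2* (Pearson r = 0.957), *Slc17a5* (0.946), *Ppp1r3b* (0.946), *Wdsub1* (0.944) and *Prrg1* (0.939). The libraries share groups, so that these values describe the order of the groups and carry no test. *Ankmy2* had means of 8.58, 11.7 and 16.5 normalised CPM in E11.5_NP, E11.5_SP and E11.5_UB, and of 30.5, 36.0 and 39.3 in iNP, iSP and iUB.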

How the data were processed

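The authors sequenced stranded mRNA libraries; the submitters' processing notes name STAR, cutadapt and GRCh38, although all 22761 gene identifiers are from mouse. The counting program is not given in the sources used here. The deposited signal is CPM scaled by the authors' normalisation factors, and deposited fold changes and p-values were not used. All values came out as whole reads within 0.01. Groups followed sample titles, and p-values measure the spread between samples of a group. Each comparison was fitted on its own libraries (4 per group) with limma 3.58.1 (R 4.3.3, trend) on log2(value + 1), for genes at 1 or more in at least 4 libraries, with Benjamini-Hochberg adjustment. Python 3.11.15 was used for tables. edgeR 4.0.16 (quasi-likelihood) on recovered reads, another pseudocount, no filter, other scalings, a fit of all samples, a replicate block and each library left out were tried. The tests were tested on simulated data. Coordinates are from GENCODE vM21 (GRCm38), which held 22642 of the identifiers. The 10 genes and all lists were chosen with earlier results of these data known. Named genes were the 10, the 3 largest changes per list and comparison, 6 fixed HIF genes and 5 of like profile, from which examples are given.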

Additional observations from a re-analysis of the deposited data

Results flagged for a closer look

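In 7 of 90 sets of 4 libraries, 1 library lay far from the others, where chance gives about 1 in 20. E12.5_UB-1 accounted for 3 of them, with *Vegfa* at 217 normalised CPM (next 332), *Car9* at 5.53 (next 0.531) and *P4ha2* at 35.2 (next 21.2). In E11.5_NP, *Ndrg1* was at 23.3 in library 1 (next 27.4), *Bnip3* at 16.7 in library 1 (next 14.5) and *Ankrd37* at 2.43 in library 4 (next 1.58). *Adm* was at 4.21 in E11.5_SP-3 (next 3.48).

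The difference between ES-derived and E11.5 cells itself differed between cell types in 18 of the tests of these genes (limma interaction). All 10 genes were tested in each interaction. Of all genes, 17.4% were higher and 11.9% lower for NP and SP, 24.2% and 23.3% for UB and SP, and 22.3% and 24.9% for UB and NP cells. In those with UB cells, cell type cannot be told apart from ES line and protocol. For NP minus SP cells, the difference of log2 fold changes was -0.84 for *Egln1*, 1.14 for *Egln3*, -0.76 for *Car9* and 0.81 for *Adm*. For UB minus SP cells, it was -1.36 for *Egln3*, -0.90 for *Vegfa*, 2.0 for *Ndrg1*, -0.69 for *Bnip3*, -1.48 for *Adm* and 1.29 for *P4ha2*. For UB minus NP cells, it was 0.74 for *Egln1*, -2.51 for *Egln3*, -0.83 for *Vegfa*, 1.46 for *Ndrg1*, -0.67 for *Bnip3*, -2.30 for *Adm*, -0.34 for *P4ha1* and 1.35 for *P4ha2*. The value for *Car9* became -0.18 with a pseudocount of 0.1 and -0.02 with edgeR, and did not pass in 9 of 23 alternatives. That for *P4ha1* (adjusted p = 0.0481) did not pass in 17 of 23 alternatives, among them edgeR, the fit of all samples and 13 that left out 1 library, with values from -0.49 to -0.25 over all 23.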

How the results depend on the processing

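No called fold change of the 10 genes reversed under the alternatives run. Some that were not called changed sign near 0, such as *Vegfa* in iUB against E11.5_UB (-0.24 to 0.02) and *Ndrg1* in iSP against E11.5_SP (-0.32 to 0.03). Fitting all 36 samples called 4 genes higher in E12.5_SP than in E11.5_SP (2 in the comparison alone), 1 lower in E12.5_NP than in E11.5_NP (0), as did quantile normalisation, and 3 lower in the interaction of UB and NP cells (5). In the interaction of NP and SP cells 1 gene was lower (2) with a pseudocount of 0.1, with the fit of all samples and with edgeR. Against E12.5_NP, iNP had 10 genes higher (7) with the fit of all samples and with upper-quartile scaling, and 9 with quantile normalisation and with the replicate block, through *Egln1*, *Vegfa* or *Ankrd37*. The fit of all samples lost *Ndrg1* in iNP against E11.5_NP (adjusted p = 0.242) and *Bnip3* in the interaction of UB and SP cells (adjusted p = 0.179). The cause was not tested. With each library left out in turn, the count of higher genes against E11.5 ranged from 7 to 9 in iUB, 8 to 9 in iSP and 9 to 10 in iNP, and against E12.5 it was 6 in iUB, 6 to 8 in iSP and 6 to 8 in iNP, with 0 to 1 lower in iUB and iSP. Without an ES-derived library, *Car9* was not tested against E11.5 cells, nor against E12.5 cells in iSP and iNP, which lowers those counts. Against E11.5 cells no other called gene lost its call in this way. From E11.5 to E12.5 the count ranged from 6 to 8 higher and 0 to 1 lower in UB, 1 to 6 higher in SP, and 0 to 4 higher and 0 to 1 lower in NP cells. Lower genes ranged from 5 to 7 in iNP against iSP, 4 to 5 in iUB against iSP, 1 to 2 in iUB against iNP, and 2 to 4 in E11.5_UB against E11.5_SP. Higher genes in E11.5_UB against E11.5_NP ranged from 4 to 5. Interactions ranged from 2 to 3 higher and 1 to 2 lower for NP and SP, and 4 to 5 lower for UB and NP cells. Over all genes, the fit of all samples called 1298 higher and 1843 lower in E12.5_SP against E11.5_SP (508 and 654 in the comparison alone) and 811 and 761 in E12.5_NP against E11.5_NP (368 and 482). Upper-quartile scaling moved the median of all genes by 0.13 in iSP and 0.17 in iNP against E11.5, and the share of calls that were higher from 54.9% to 66.4% in iNP (57.7% to 69.9% against E12.5_NP, and 47.2% to 37.2% in the interaction of UB and NP cells). Quantile normalisation moved it from 59.5% to 47.4% in the interaction of NP and SP cells. No comparison had a correlation over 0.1 in every pair of same-numbered libraries. The mean over such pairs was 0.33 in iUB against iSP (other pairs -0.09) and 0.28 in iNP against E12.5_NP (other pairs -0.05). Whether same-numbered samples share material is not given in the sources used here, and the main fits used no block. With the replicate block, 1262 and 1103 genes were called higher and lower in E12.5_UB against E11.5_UB (1951 and 1697 without it), and 9 of the 10 genes were higher in iUB than in E11.5_UB, with *Adm* added. edgeR on the recovered reads called 4350 genes higher and 4170 lower in iUB against E11.5_UB (limma 4474 and 3971). Depth limits *Car9* most, which rests on 26 to 162 reads over the 4 libraries of each ex-fetu group.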

Other observations

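Immediate-early and heat-shock genes, which respond within minutes to handling and heat in many cells went both ways in ES-derived cells. Of 10 listed, 7 rose and 1 fell in iUB, 3 rose and 5 fell in iSP, and 5 rose and 4 fell in iNP against E11.5 cells. Of all genes 32.1% rose and 28.5% fell in iUB, 35.5% and 32.1% in iSP, and 35.5% and 29.2% in iNP. *Fos*, an immediate-early transcription factor, rose from a mean of 70.8 to 562 normalised CPM in iUB, from 198 to 460 in iSP and from 66.5 to 321 in iNP. *Hspa1a*, an inducible heat-shock chaperone, fell from 180 to 87.0 in iUB, from 122 to 0.910 in iSP and from 24.4 to 0.629 in iNP (adjusted p = 0.0447, 6.86e-09 and 1.92e-06, limma). *Atf3*, a transcription factor of the stress response, fell from 178 to 2.88 in iSP and from 71.1 to 3.63 in iNP, and in iUB was at 434 against 288 (adjusted p = 0.0703).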
